A study of Caenorhabditis elegans with 2 samples.

Results

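The cytosolic ribosomal protein genes of Caenorhabditis elegans were examined for regions bound in chromatin from worms with tagged HLH-6. HLH-6 belongs to the basic helix-loop-helix (bHLH) family of transcription factors and is known for its part in making pharyngeal glands. Members were all protein-coding genes with a symbol starting rpl- (47 genes, large subunit) or rps- (31 genes, small subunit). They numbered 78 of the 19973 protein-coding genes on the nuclear chromosomes in the Ensembl annotation of WBcel235. Membership and subunit were read from the symbol alone. The 47 thus include rpl-24.2, which is related to a yeast ribosome assembly factor. Chromatin came from 1 group of whole hermaphrodite late embryos of strain RW10702, 3.5 hours after synchronization by bleaching of eggs. All worms were transgenic and stably expressed HLH-6 with GFP and FLAG at its C-terminus. The promoter that drives the transgene is not given in the labels, and both biological replicates come from this line. Immunoprecipitation used an antibody against GFP per the description, while the antibody field of the labels names hlh-6. With tagged worms alone in the 1 group, there was no untagged comparison and no condition was compared with another. The control library was not analysed here, beyond its use by the authors in making the lists.

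Ribosomal proteins are the protein part of the ribosome and hold its folded ribosomal RNA in shape. Their genes are among the most strongly transcribed in growing cells, and the proteins are made in matched amounts. In worms some of these genes carry, in an intron, the gene of a small nucleolar RNA (snoRNA), a short RNA that guides the chemical modification of ribosomal RNA. Many worm messages also receive a spliced leader, so an annotated transcription start site (TSS) can lie downstream of the base where transcription begins.

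The authors' optimal list, the outcome of their comparison of the replicates by IDR, was identical with the top of their pooled list, down to a signal value of 85.6. A place in it therefore does not say that a region ranked alike in both replicates. A gene was counted when the summit of a region fell in its promoter window, which reaches 1000 bp before and 200 bp after each TSS, or inside the gene. Of the 6 ribosomal protein genes so found, the sequence around the summit is shown for 5, since the presence of the bHLH site is read from it. The window of rps-19 was also searched but is not shown. Each line gives 101 bases of the plus strand of ce11 centred on the summit, 5′ to 3′. Capitals mark the E-box CANNTG, the site of bHLH proteins, which is its own reverse complement and so was searched on both strands at once. The windows are chrIII:3867558-3867658 (rpl-3), chrIV:385269-385369 (rps-24), chrIV:654869-654969 (rpl-15), chrIV:1659203-1659303 (rps-28) and chrIV:12391296-12391396 (rps-23).
rpl-3: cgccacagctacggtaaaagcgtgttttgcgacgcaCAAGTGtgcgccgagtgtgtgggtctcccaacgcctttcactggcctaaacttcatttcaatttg
rps-24: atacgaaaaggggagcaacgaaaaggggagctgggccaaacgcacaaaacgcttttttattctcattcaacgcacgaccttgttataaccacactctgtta
rpl-15: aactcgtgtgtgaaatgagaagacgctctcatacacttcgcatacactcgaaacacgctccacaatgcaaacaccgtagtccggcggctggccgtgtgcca
rps-28: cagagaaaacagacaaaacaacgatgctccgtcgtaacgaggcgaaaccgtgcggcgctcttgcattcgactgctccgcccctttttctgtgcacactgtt
rps-23: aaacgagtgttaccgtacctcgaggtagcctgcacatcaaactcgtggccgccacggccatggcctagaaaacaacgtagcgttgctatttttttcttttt

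The E-box stood near the summit at 2 of the 6 genes, rpl-3 and rps-19, beside 33.6% of all optimal summits. In rpl-3 it read CAAGTG and began at position -14 bp from the summit. The other 4 windows, those of rps-24, rpl-15, rps-28 and rps-23, held no E-box, which says only that these letters are not within 50 bp of the summit. The GC content of the 6 windows ran from 44.6% to 55.4% with a median of 53.0%, and over all optimal summits the median was 52.5% with quartiles of 47.5% and 56.4%.

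Among the 78 genes, 6 had an optimal summit in the promoter window (7.69%, exact 95% interval 2.88 to 16), beside 2.50% of all protein-coding genes. The members were chosen with earlier results of these data known, so this share is a description and was not tested. All 6 summits lay upstream of the gene, at -568 to -246 bp from its nearest TSS, and in no coding gene. The large-subunit genes had 2 of 47 (4.26%) and the small-subunit genes 4 of 31 (12.9%), with intervals of 0.52 to 14.5 and 3.63 to 29.8 that overlap. No ribosomal protein gene had an optimal summit inside the gene (0 of 78, exact interval up to 4.62%), beside 1.96% of all coding genes. Promoter window and gene body together gave the same 6 genes, beside 3.92% of coding genes. These genes are short, with a median length of 754 bp against 2027 bp over all coding genes. The intervals cover the counting of genes only.

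The strongest of the 6 was rpl-3, which encodes a large-subunit protein close to the peptidyl transferase centre. Its region (chromosome III, 3867378 to 3867837, summit at -246 bp) had an authors' signal value of 181 and rank 105 in the pooled list. The overlapping regions had 93.4 (rank 109) in replicate 1 and 87.5 (rank 118) in replicate 2. The signal value is a deposited score of unknown scale and is compared only within a list.

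The small-subunit gene rps-24 followed with a pooled value of 172 (rank 123). Its summit lay at -568 bp, the farthest of the 6, in the region on IV from 385089 to 385548. Replicate 1 gave 97.5 (rank 99) and replicate 2 gave 71.7 (rank 224). Neither the rpl-3 nor the rps-24 summit lay in the promoter window of another coding gene.

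rpl-15, a large-subunit gene on IV, had a pooled value of 108 (rank 407) in the region from 654689 to 655148. Its replicate values were 49.5 (rank 666) and 52.5 (rank 592). The summit, at -343 bp from rpl-15, also lay in the promoter window of K11H12.8. Together with rpl-3 and rps-24, this gene was found in each replicate among its strongest regions, taken to the length of the optimal list, and no other member was. That made 3 of 78 genes, beside 2.29% of coding genes.

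The remaining 3 genes belong to the small subunit, and rps-19 and rps-28 among them differed most between the replicates. rps-19, whose human counterpart is mutated in Diamond-Blackfan anaemia, had a pooled value of 111 (rank 371) on I from 9625853 to 9626312. Its value was 80.4 (rank 161) in replicate 2 but 30.5 (rank 3793) in replicate 1, a ratio of 2.64. rps-28 on IV (1659023 to 1659482) had 100 in the pooled list (rank 520), with 60.4 (rank 360) in replicate 2 and 30.1 (rank 3995) in replicate 1, a ratio of 2.01. For the other 4 genes the higher value was 1.03 to 1.36 times the lower.

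rps-23, which encodes a protein near the decoding centre of the ribosome, was the member just inside the list. Its region on IV (12391116 to 12391575) had a pooled value of 90.7 (rank 740), with 45.3 (rank 909) in replicate 1 and 44.1 (rank 1162) in replicate 2, the closest replicate values of the 6. Of the promoter windows of all members, 6 (7.69%) held a summit of the strongest regions of replicate 1, taken to the same length, beside 2.39% of coding genes. In replicate 2 the count was 5 (6.41%), beside 2.37%.

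4 of the 6 summits lay in a second promoter window as well, those of rps-19 (with hsr-9), rpl-15 (K11H12.8), rps-28 (Y41D4B.4) and rps-23 (dpm-3). Over the list, 100 of the 407 optimal summits in coding promoter windows (24.6%) lay in more than 1. For rps-19 and rps-23 the neighbour's TSS was the nearer, so that 4 of 6 genes were kept when each summit was given to the nearest TSS only, a setting added after the data were seen. Over all coding genes this setting kept 391 of 500, or 1.96% of coding genes. Which gene of such a pair the region belongs to was not tested.

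**Figure D1:**
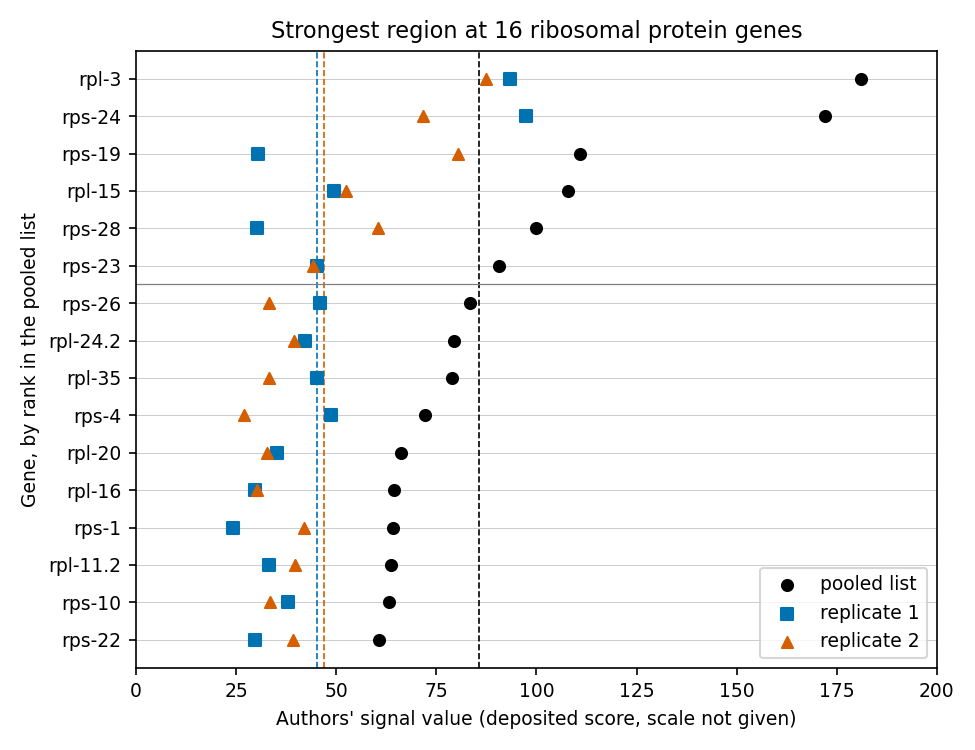
Authors' signal value (horizontal axis, deposited score of unknown scale) of the strongest region at the 6 ribosomal protein genes in the optimal list (above the grey line) and the 10 next by rank in the pooled list. Points are the pooled list and the overlapping region in each replicate list, and dashed lines of the same colours mark, in each list, the value at the rank of the last optimal region; rps-19 and rps-28 lie right of the line in replicate 2 and left of it in replicate 1.

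The genes just outside the list had lower values, and their summits were not all in the same kind of place as those of the 6. rps-26, a small-subunit gene, had a pooled value of 83.3 (rank 998) with its summit at -401 bp, against 85.6 for the last optimal region. Its values were 45.8 (rank 876) in replicate 1 and 33.2 (rank 3386) in replicate 2, and its summit lay 117 bp from the snoRNA gene F39B2.14. rpl-24.2, related to the yeast ribosome assembly factor Rlp24, had 79.4 (rank 1206), with 42.2 and 39.4 in the replicates, from a summit in an intron of the overlapping gene C03D6.1. rpl-35, of the large subunit, had 78.8 (rank 1236), with 45.3 (rank 908) in replicate 1 and 33.1 (rank 3405) in replicate 2.

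The strongest region inside a member was in the coding sequence of rps-4 (72.1, rank 1699). Its values were 48.6 (rank 721) in replicate 1 and 26.9 (rank 6636) in replicate 2, and its summit lay 135 bp from the snoRNA gene Y43B11AR.7 in an intron of rps-4. The strongest regions of replicate 1, at the length of the optimal list, thus held 7 members in promoter window or body (rps-24, rpl-3, rpl-15, rps-4, rps-26, rpl-35 and rps-23), beside 3.86% of coding genes. Those of replicate 2 held 5 (rpl-3, rps-19, rps-24, rps-28 and rpl-15), beside 3.87%. The 6 genes next in rank, rpl-20, rpl-16, rps-1, rpl-11.2, rps-10 and rps-22, had pooled values from 66.1 down to 60.7. In replicate 1 these 6 ran from 24.3 (rps-1) to 38.0 (rps-10), and in replicate 2 from 30.2 (rpl-16) to 41.9 (rps-1).

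In the pooled list, which holds the optimal regions and many weaker ones, regions were present at most ribosomal protein genes. The counts that follow, of members and of coding genes, include genes with an optimal summit. The pooled and replicate lists hold 30000 regions each and reach down to regions the authors did not call, so a place in them is a rank and not a call. In the pooled list, 68 of 78 genes had a summit in the promoter window or gene body (87.2%, interval 77.7 to 93.7), beside 56.8% of coding genes. In promoter windows the count was 59 of 78 (75.6%), beside 36.0%, and in gene bodies 40 of 78 (51.3%), beside 45.4%. Per length of gene body, summits of the pooled list numbered 7.91 per 10 kb in ribosomal protein genes and 3.27 per 10 kb over all coding genes.

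The best rank of these 68 genes had a median of 7548 (quartiles 3209 and 12079), and that of the 11353 coding genes with a summit a median of 9896 (quartiles 4051 and 18116). The corresponding median signal values were 45.3 and 40.8. Large-subunit and small-subunit genes had medians of 7392 and 7548. The lowest of the 68 was rps-9, at rank 29395. Promoter windows of ribosomal protein genes had a median GC content of 36.9%, against 35.0% over all coding genes; the part of base composition in these ranks was not tested.

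10 members had no pooled summit. Of these, rpl-34, rpl-37, rpl-38, rps-8 and rps-25 had none in the list of either replicate. rpl-10 had one in both replicate lists (ranks 25488 and 13466), and rpl-26, rpl-32, rpl-36.A and rps-15 in replicate 2 alone, at ranks from 21086 to 29869. Counted by gene, 56 of the 68 strongest regions overlapped a region in both replicate lists, with the better rank in replicate 1 for 32 and in replicate 2 for 24. This overlap was not counted over all coding genes, so it describes the members alone. The 68 genes had 66 distinct regions, since rpl-39 shares its region with rps-30 (rank 8172) and rpl-36 with rps-14 (rank 12052). The separate regions of rps-10 and rpl-24.1 overlap, and both were matched to the same replicate regions (ranks 1799 and 3260).

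The strongest summit lay in no coding gene for 28 of the 68 members, in the member itself for 28 and in another coding gene for 12. Within the member it was in coding sequence in 23 cases, in an intron in 3 and in an untranslated region in 2. Relative to the nearest TSS of the member, 42 of the 68 summits were upstream, and the 9 strongest were all upstream. Upstream by this measure can still be inside the gene, as for rpl-31 (-47 bp) and rpl-11.1 (-73 bp), which have 2 TSSs each. The places and directions were not counted over all coding genes.

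**Figure D2:**
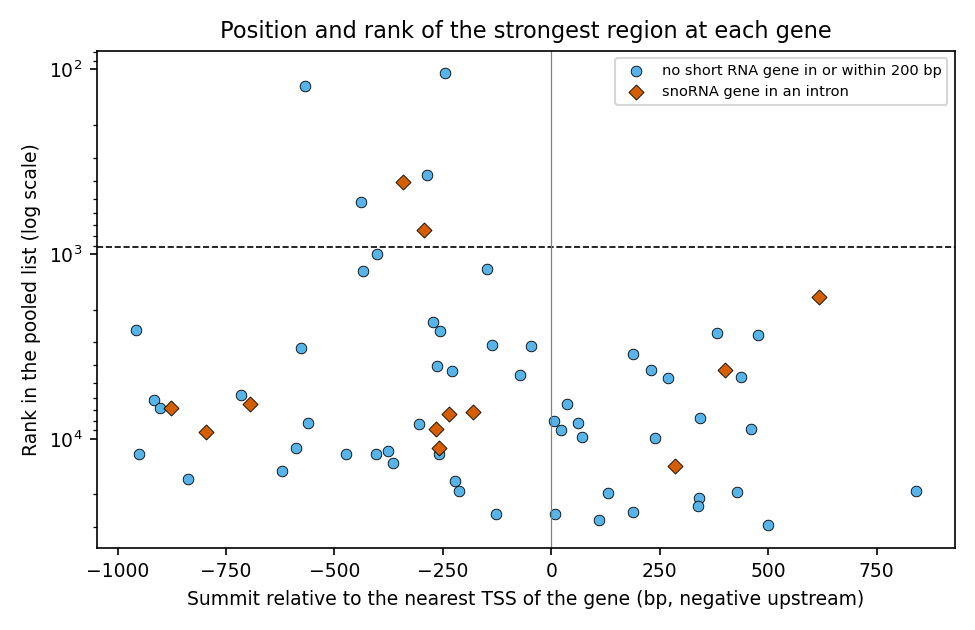
Rank in the pooled list (vertical axis, log scale, strongest at the top) against the distance of the summit from the nearest TSS of the gene (horizontal axis, bp) for the strongest region of 68 ribosomal protein genes. Diamonds are genes with a snoRNA gene in an intron, and the dashed line is the rank of the last optimal region; all 6 points above it lie between -568 and -246 bp.

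Relative to the annotated start, summits at ribosomal protein genes gathered between -300 and -200 bp. In 100-bp bins from 1500 bp upstream to 1500 bp downstream of the most upstream TSS, the pooled list placed 16 summits in that bin, or 20.5 per 100 genes, beside 3.67 per 100 coding genes. It was the fullest bin for these genes in the pooled list, in replicate 1 (16 summits, 20.5 per 100 genes beside 4.03) and in replicate 2 (15 summits, 19.2 beside 3.68). All coding genes also had their fullest bin upstream in the pooled list, at -200 to -100 bp. It held 4.45 summits per 100 coding genes, and 6.41 per 100 ribosomal protein genes. Over all 30 bins the mean was 7.01 per 100 ribosomal protein genes and 3.13 per 100 coding genes, so more summits lay on both sides of the start as well. The bin was singled out after its values were seen, and no test was made.

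The 16 genes with a summit there spanned the whole range of ranks. They were led by rpl-3, rps-19 and rps-23, then rpl-20 (rank 2339), rps-1 (2594), rpl-41.2 (4034) and rps-20 (4299). The others were rps-29, rps-12, rpl-7, rps-14, rps-4, rpl-22, rps-17, rps-0 and rps-6, at ranks from 7350 to 25864. Many of these summits also lay in the promoter window of another coding gene. For rps-19, rps-23, rpl-20, rps-20, rps-12 and rpl-22 the neighbour's TSS was the nearer. For rpl-3, rps-1, rpl-41.2, rps-29, rpl-7, rps-14 and rps-17 it was the member's own. Which gene these regions belong to was not tested.

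**Figure D3:**
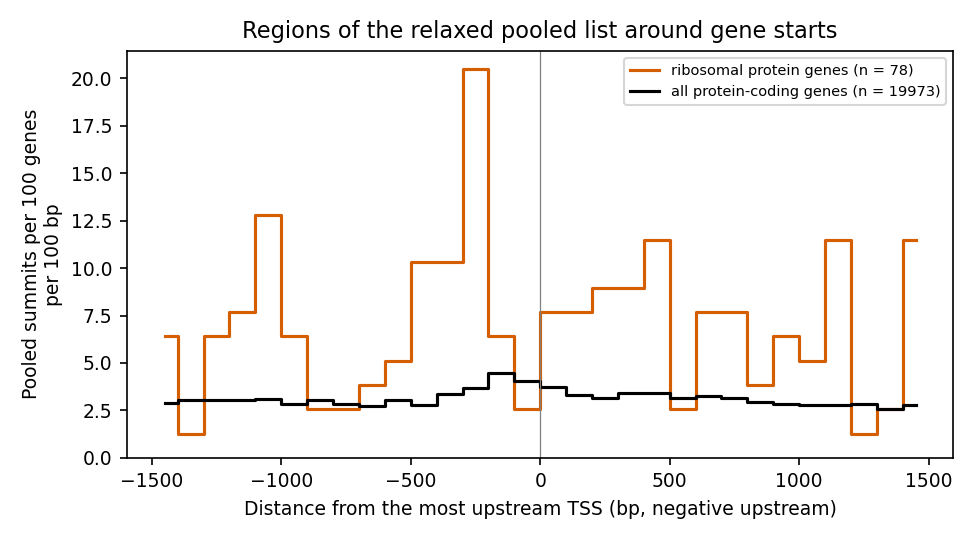
Summits of the relaxed pooled list per 100 genes in 100-bp bins (vertical axis) by distance from the most upstream annotated TSS (horizontal axis, bp) for 78 ribosomal protein genes and all 19973 protein-coding genes. The line of the ribosomal protein genes peaks at 20.5 between -300 and -200 bp, where that of all coding genes is at 3.67. The line of all coding genes is highest, at 4.45, between -200 and -100 bp.

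Some ribosomal protein genes carried snoRNA genes, and no optimal summit lay on or beside these. Short RNA genes (tRNA, snoRNA or snRNA) lay in or within 200 bp of 13 of 78 members (16.7%), beside 2.95% of coding genes. In all 13 it was a snoRNA gene in an intron on the same strand. The hosts were rpl-2, rpl-4, rpl-6, rpl-7, rpl-7A, rpl-15, rpl-24.1, rpl-26, rps-4, rps-12, rps-13, rps-23 and rps-29, with 19 snoRNA genes in total. rpl-6 held 3, R151.11, R151.12 and R151.13, and rpl-7A, rpl-15, rps-12 and rps-29 held 2 each.

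None of the 19 hosted snoRNA genes had an optimal summit within 200 bp (0 of 19, exact interval up to 17.6%), beside 15.6% of all 346 snoRNA genes. That interval contains the overall share, so a lower share was not detectable with 19 genes. Of 164 snoRNA genes inside other coding genes on the same strand, 22 had an optimal summit (13.4%). In the relaxed pooled list, 4 of the 19 had a summit within 200 bp, Y43B11AR.7 in rps-4 (rank 1699), R151.11 and R151.12 in rpl-6 (both the region of rank 4226, value 55.2) and B0041.9 in rpl-4 (rank 14088). These 4 made up 21.1%, beside 41.3% of all snoRNA genes and 39.6% of those inside other coding genes on the same strand, and the difference was not tested.

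Of the 13 hosts, 2 had an optimal summit, rpl-15 and rps-23 (15.4%), beside 26.4% of the 590 coding genes with a short RNA gene in or near them. Those 590 were counted with a tRNA, snoRNA or snRNA gene on either strand, and 396 had one on the same strand. The 13 hosts all carried an intronic snoRNA gene on the same strand, so the 2 shares are not of like genes. Of the 65 members with no short RNA gene in or near them, 4 had an optimal summit (6.15%), beside 3.23% of such coding genes. In both hosts the summit lay upstream of the gene, 558 bp from K11H12.13 in rpl-15 and 691 bp from F28D1.13 in rps-23. No summit of the 6 genes lay within 200 bp of a short RNA gene, and the nearest such gene to the rpl-3 summit was 85642 bp away. With summits near such RNA genes left out of the list, the 6 of 78 members were unaltered, beside 2.19% of coding genes. The median pooled rank was 6999 for the 12 hosts with a summit and 8078 for the 56 other members.

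Pairs of genes with a shared symbol root differed in rank. rpl-11.2 was at rank 2659 and rpl-11.1 at 4522, rpl-24.2 at 1206 and rpl-24.1 at 6796, and rpl-25.1 at 4694 and rpl-25.2 at 7983. rpl-41.2 was at rank 4034 and rpl-41.1 at 19678, while rpl-36 was at 12052 and rpl-36.A had no pooled summit. The rpl-41.1 summit also lay in the promoter window of rpl-41.2. The rpl-24.1 summit lay in the coding sequence of rps-10, at -876 bp from rpl-24.1. Which gene these regions belong to was not tested. The pairs were formed by symbol alone, which does not make the genes copies of each other, and likeness in sequence was not tested. How reads that match both genes of a pair were treated is not given in the sources used here. These ranks are therefore uncertain for any pair whose genes are alike in sequence.

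Other genes of ribosomes and translation were set beside them. None of 6 further cytosolic ribosome genes (rla-0, rla-1 and rla-2 of the stalk, the ubiquitin fusion genes ubl-1 and ubq-2, and rack-1) had an optimal summit, with an exact interval up to 45.9%. Mitochondrial ribosomal protein genes had one in the promoter window in 3 of 70 cases (4.29%), mrpl-23 (171, with a short RNA gene 46 bp from the summit), mrps-35 (105) and mrpl-15 (90.1). Translation factor genes had 2 of 45 (4.44%), the initiation factor gene eif-2Bgamma (96.8, with its summit inside a short RNA gene) and iff-2, an eIF5A gene (93.6). Ribosome biogenesis genes had 3 of 41 (7.32%). They were fib-1, the fibrillarin that methylates ribosomal RNA (129), and the RNA exosome genes exos-8 (98.2) and exos-9 (87.5). Over all coding genes, 2.50% had an optimal summit in the promoter window. Summits lay at -985 bp for mrpl-23 and exos-9, -876 bp for eif-2Bgamma and -686 bp for mrpl-15. Those of fib-1, mrps-35, iff-2 and exos-8 lay at -124 to -68 bp. Which gene these regions belong to was not tested.

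None of these lists had an optimal summit in a gene body, beside 1.96% of all coding genes. The exact intervals reached up to 5.13% for mitochondrial ribosomal protein, 7.87% for translation factor and 8.6% for biogenesis genes. For the further cytosolic ribosome genes the upper limit was 45.9%. All these intervals contain the share of all coding genes, so a lower share was not detectable. In the relaxed pooled list, 67.1% of mitochondrial ribosomal protein genes, 86.7% of translation factor genes and 80.5% of biogenesis genes had a summit in the promoter window or body, beside the 87.2% of cytosolic ribosomal protein genes. Of the 6 further cytosolic ribosome genes, 5 had one (83.3%, interval 35.9 to 99.6), but only 1 of 6 in the promoter window, and their median best rank was 10807. For the mitochondrial, translation factor and biogenesis lists, median best ranks were 14437, 5613 and 6444, with median gene lengths of 1126, 2219 and 2675 bp. The shares of translation factor, biogenesis and further cytosolic ribosome genes thus lay inside the interval of the ribosomal protein genes, and that of mitochondrial ribosomal protein genes below it. No test between the lists was made.

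**Figure D4:**
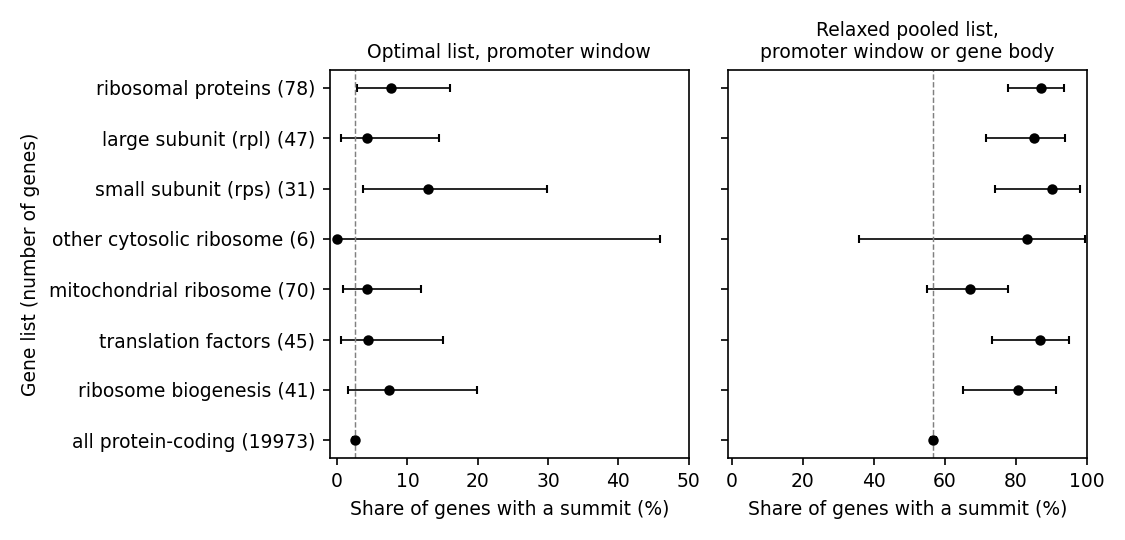
Share of genes (%) with a summit, for the ribosomal protein genes, their 2 subunits, 4 related lists and all protein-coding genes, in promoter windows for the optimal list (left) and in promoter windows or gene bodies for the relaxed pooled list (right). Bars are exact 95% intervals for the counting of genes and dashed lines the share of all coding genes; the ribosomal protein genes are at 7.69% and 87.2%.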

How the data were processed

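ChIP-seq regions of 2 biological replicates of a single group were used. Per the README texts deposited beside the lists, each replicate list and the pooled list were made on ce11 from alignments and a control as input for IDR, and the optimal list from these 3. Neither aligner, peak caller nor the threshold applied to IDR is stated: not given in the sources used here. The authors' signal value is a deposited score per region, and the −log10 q-value and summit offset are also as deposited by the authors. No file gives read counts, so depth is unknown. ce10 lists were not used.

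Region ends lay within the WBcel235 chromosome lengths. Genes came from Ensembl release 115. Shares carry exact (Clopper-Pearson) 95% intervals from SciPy 1.17.1. Replicate regions were matched to pooled ones by an overlap of at least 1 bp. The members and lists were chosen with earlier results of these data known, and no enrichment test was made. Of 37 biogenesis and 8 translation factor symbols sought singly, 33 and 7 were found. The window rule was checked on made-up genes. Genes named were all members with an optimal summit, the 10 next in rank, all hosts of short RNA genes, the extremes of rank, and up to 4 genes of each other list with the strongest optimal summit. Those named for lacking a summit, for a summit between -300 and -200 bp, for sharing a region or as pairs by symbol were chosen after their values were seen. Alternatives covered the window, the overlap, the list and the replicate.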

Additional observations from a re-analysis of the deposited data

How the results depend on the processing

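Of 53 alternative values, 43 were within 1.5 times the reported value, bounds included, and 10 were not. Promoter windows held 6 members with 500 bp upstream (beside 1.78% of coding genes) and with the most upstream TSS alone (2.18%), 8 with 2000 bp upstream (3.54%, rps-16 and rpl-5 added) and 4 with the optimal list shortened to its strongest 50% (1.34%). The count in gene bodies went from 0 to 1 with any overlap of at least 1 bp (rpl-27, beside 2.85%) and to 1 with the list lengthened to 200% from the pooled list (rps-4, beside 4.05%). In a single replicate it ran from 0 to 1, beside 2.00% in replicate 1 and 2.01% in replicate 2. With the lengthened list, the members in promoter window or body rose to 10, beside 7.24%, and those without a short RNA gene to 7. Members with both a short RNA gene and a summit went from 2 to 1 with the shortened list and ran from 1 to 3 in a single replicate (replicate 1 added rps-4, replicate 2 held rpl-15 alone). For the counts with and without a short RNA gene, shares of all coding genes were not computed at these settings. At the lengthened size, members among the strongest of both replicates numbered 5, beside 4.17%. A minimum −log10 q of 2 left 10 members with a pooled summit, beside 8.66% of coding genes, at a median rank of 630 beside 1018. The shortened and lengthened lists and the q minimum count fewer or more regions by construction, and for the single replicates and the overlap the cause was not tested. The depth behind the weak regions is unknown. No paired analysis was possible because the study has a single group.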

Other observations

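Of the 6 members with an optimal summit, 4 lie on chromosome IV (rps-24, rpl-15, rps-28 and rps-23), where 17 of the 78 members are and where 1.92% of coding genes had an optimal summit in the promoter window. Chromosome I holds 23 members, of which rps-19 alone was in the list, beside 3.16% of its coding genes. Chromosome III holds 18, of which rpl-3 alone was, beside 3.14%. Chromosomes II, V and X, with 10, 8 and 2 members, had none, beside 2.49%, 1.68% and 3.41%.

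CACACA or its reverse complement TGTGTG was within 50 bp of the summit of rpl-3 and rpl-15, 2 of the 6, beside 17.3% of optimal summits. GAGAGA or TCTCTC was near none of the 6, beside 20.5%. Over the strongest pooled summits of all 68 members, the E-box was present at 13 (19.1%), CACACA or TGTGTG at 4 and GAGAGA or TCTCTC at 5. Shares over all pooled summits were not computed. The shares over optimal summits belong to stronger regions and are no matched comparison for these 68. These 3 sequences were taken from an earlier account of the same lists, and the counts are descriptions without a test.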
